A study of Homo sapiens with 12 samples.

Results

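Untreated cells of the lung line LC-2/ad and the thyroid line TPC-1 were set side by side, gene by gene. The members are the 6 parent libraries, 3 per line, of 12 libraries in the series. The other 6 libraries come from the same lines after 48 h in 100 nM selpercatinib, a drug that blocks the kinase RET, and serve here only as a check. The labels describe LC-2/ad as lung cancer and TPC-1 as papillary thyroid cancer, and the series title calls both RET-aberrant. The parent cells' treatment is given as none, and no solvent is named. RPMI-1640 was the medium of TPC-1, and for LC-2/ad it was mixed with F-12. Both media held fetal bovine serum. Each line is a single cancer cell line, so the comparison is between these lines and not between tumour types.

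RET is the receptor of the GDNF family of growth factors, which bind it together with a coreceptor such as GFRA1. Both lines are known to carry a fusion of RET with CCDC6, in which the kinase is active without ligand and signals through ERK and PI3K. NKX2-1 and PAX8 are the transcription factors by which pathologists recognise lung adenocarcinoma and thyroid follicular tumours, and thyroid follicle cells normally make both. Epithelial cells are held together by E-cadherin and tight junctions, whereas mesenchymal cells make vimentin, fibronectin and N-cadherin.

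The values were TPM, a transcript share that is scaled for gene length and sums to the same total in each library. Each line is in a table of its own that was normalised separately, and the growth medium also went with the line. Line, table and medium therefore cannot be told apart. No p-value is given across the tables, and only large differences in level are described. A gene was compared when its mean reached 1 TPM in at least 1 line, which left 14664 genes. It was called higher in a line when the lowest library of that line lay at least 2 above the highest library of the other on the log2(TPM + 1) scale, a 4-fold gap. Differences are LC-2/ad minus TPC-1 of the mean log2(TPM + 1), so negative values mean a higher level in TPC-1, and the added 1 makes the difference of a low gene smaller than its fold change. Errors are SD over 3 libraries for levels and SE for differences. Nothing in the labels ties the libraries of a line to separate cultures, so this spread may be technical.

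By this rule 949 genes were higher in LC-2/ad (6.47% of those compared) and 576 in TPC-1 (3.93%). The background of genes whose libraries merely did not overlap was far larger, 51.4% with LC-2/ad higher and 30% with TPC-1 higher, so absence of overlap alone was not used. The median difference over all genes compared was 0.30. Among 7122 genes at 10 TPM or more in both lines it was 0.15, and 79.4% of these lay within 1 log2 unit. Of 20 housekeeping genes 0 were called, with a median difference of 0.12. Correlations of log2(TPM + 1) across genes were 0.987 to 0.991 within a line and 0.769 to 0.773 between lines. Between 13713 and 13749 genes per library reached 1 TPM in LC-2/ad, against 12554 to 12876 in TPC-1. Called genes held a like share of the transcripts in each line: those higher in LC-2/ad summed to 6.57% of its TPM against 0.461% in TPC-1, and those higher in TPC-1 to 6.45% against 0.442% in LC-2/ad.

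**Figure D1:**
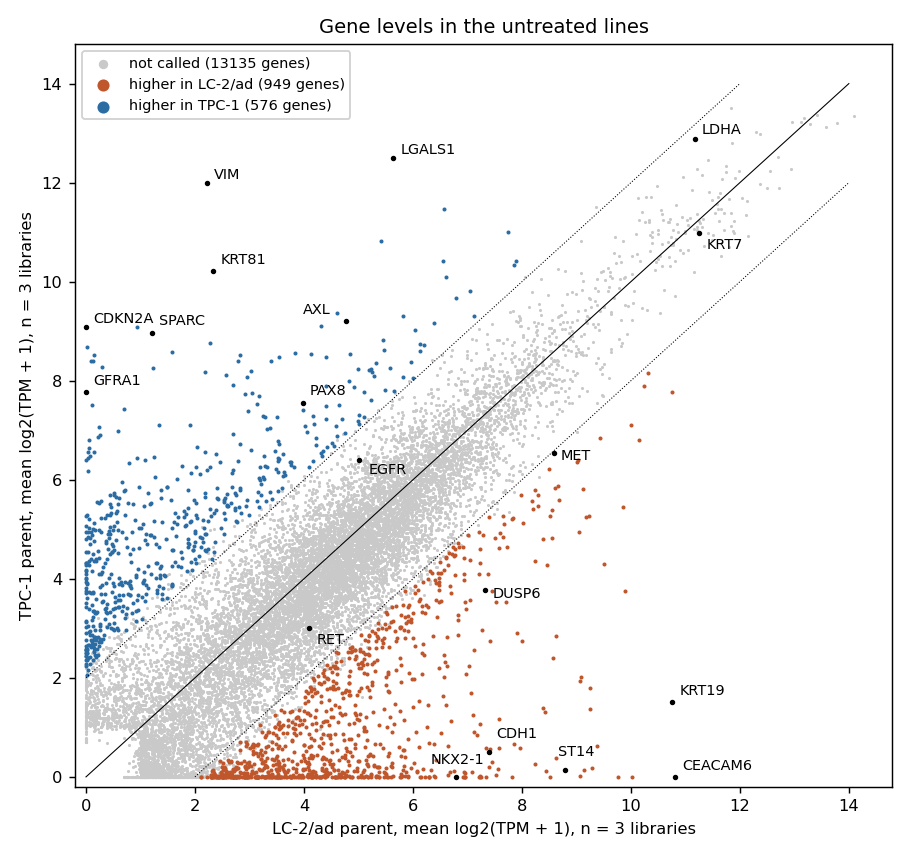
Mean log2(TPM + 1) of each gene in LC-2/ad parent cells (x axis) and TPC-1 parent cells (y axis), 3 libraries each. The solid line marks equal levels and the dotted lines a difference of 2. The 949 orange and 576 blue genes are those called in the respective line, and named genes such as CEACAM6 and VIM lie far from the diagonal. Of the genes compared 4 are not drawn.

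LC-2/ad held high levels of lung transcription factors and secretory genes that were low or listed at 0 in TPC-1. Of 30 listed genes of lung epithelial identity 17 were compared, and the others were under 1 TPM in both lines. Of the 17, 14 were higher in LC-2/ad against 0 in TPC-1, with a median difference of 5.0. A gene high in 1 line alone passes the limit, so this share and median partly follow from it. Over all 30 the summed level was 3313 ± 30 TPM in LC-2/ad and 66.1 ± 6.36 TPM in TPC-1. In bulk RNA, fewer cells with a transcript and less of it per cell cannot be told apart. NKX2-1 (ENSG00000136352, chromosome 14, 36516392 to 36521149, GRCh38), the lineage factor of lung and thyroid, stood at 109.9, 114 and 105 TPM in the LC-2/ad libraries and was listed at 0 in all TPC-1 libraries. FOXA1, a pioneer factor of endoderm, had 60.1 ± 2.64 TPM in LC-2/ad and 3.37 ± 1.25 TPM in TPC-1. For its relative FOXA2 the means were 9.11 ± 0.25 and 0.0656 ± 0.041 TPM. SLC34A2, the phosphate transporter of alveolar type II cells, measured 298, 304 and 299 TPM against 0.128, 0.147 and 0.314 TPM. NAPSA, an aspartic protease that processes surfactant protein, measured 33.8, 35.1 and 30.1 TPM against 0.209, 0 and 0 TPM. WFDC2, SLPI and MUC1, secreted or surface products of airway epithelium, had means of 149, 173 and 257 TPM in LC-2/ad and 0, 0.23 and 6.55 TPM in TPC-1.

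Surfactant and club cell genes were low in both lines. SFTPA1 and SFTPC, which encode surfactant proteins, were listed at 0 in all 6 libraries. SFTPB, another surfactant protein, had 0.861, 0.688 and 0.307 TPM in LC-2/ad and 0.0392, 0.0556 and 0.064 TPM in TPC-1, under the limit of 1 TPM in both. SCGB1A1, the club cell secretoglobin, was listed at 0 in the LC-2/ad libraries and had 0.824, 0.291 and 1.29 TPM in TPC-1. FOXJ1, the master regulator of motile cilia, was at 9.0, 10.5 and 9.73 TPM in LC-2/ad and 0.0477, 0.0492 and 0.0279 TPM in TPC-1. No other of the 10 compared cilia genes was called, a share of 10% against 6.47% over all genes.

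The thyroid genes did not separate the lines in a single direction. Of 11 compared genes of thyroid identity and hormone synthesis 3 were higher in TPC-1 and 2 in LC-2/ad, and the median difference was 0.32, near that of all genes. PAX8 (ENSG00000125618, chromosome 2, 113215997 to 113278950), the paired-box factor of thyroid follicle cells, was at 230.0, 154 and 186 TPM in TPC-1 and 14, 14.1 and 16.2 TPM in LC-2/ad, a difference of -3.58 ± 0.18. All TPC-1 libraries lay far above all LC-2/ad libraries, although LC-2/ad held PAX8 above 10 TPM. FOXE1, the forkhead factor of the thyroid bud, stood at 11.6 ± 0.462 TPM in LC-2/ad and 9.11 ± 0.779 TPM in TPC-1. HHEX, a homeobox factor of the same bud, stood at 4.6 ± 0.329 and 3.48 ± 0.43 TPM, and neither was called. GLIS3, a zinc finger factor needed for hormone synthesis, was higher in TPC-1, at 25.7 ± 1.37 against 4.16 ± 0.364 TPM. DIO2, the deiodinase that activates thyroid hormone, was higher in LC-2/ad, at 11.4 ± 2.32 against 0.284 ± 0.31 TPM. The genes that make a follicle cell a hormone factory were under 1 TPM on average in both lines. TG, thyroglobulin, had means of 0.65 and 0.775 TPM in LC-2/ad and TPC-1. TSHR, the thyrotropin receptor, had 0.332 and 0.159 TPM and SLC5A5, the iodide transporter, 0.0486 and 0.0213 TPM. By these markers TPC-1 carried PAX8, FOXE1 and HHEX, while NKX2-1 was listed at 0 and the hormone genes were low. FOXA2, FOXJ1, GLIS3 and DIO2 were not called with a pseudocount of 5 TPM.

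Markers of other cell types were low. The summed level of 8 blood cell markers was 9.47 to 12 TPM in LC-2/ad and 17 to 18.6 TPM in TPC-1, nearly all of it CD68, a lysosomal protein of macrophages that many lines make. HBB was listed at 0 in all 6 libraries. For 8 fibroblast markers the sums were 35 to 39.2 and 32.3 to 34.8 TPM, mostly COL1A1, which stood at 31.3 ± 2.72 and 28.7 ± 1.74 TPM. For 6 endothelial markers they were 15 to 17.3 and 1.04 to 1.25 TPM, with the VEGF receptor KDR alone at 12.4 ± 0.762 TPM in LC-2/ad and 0.00337 ± 0.00584 TPM in TPC-1.

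**Figure D2:**
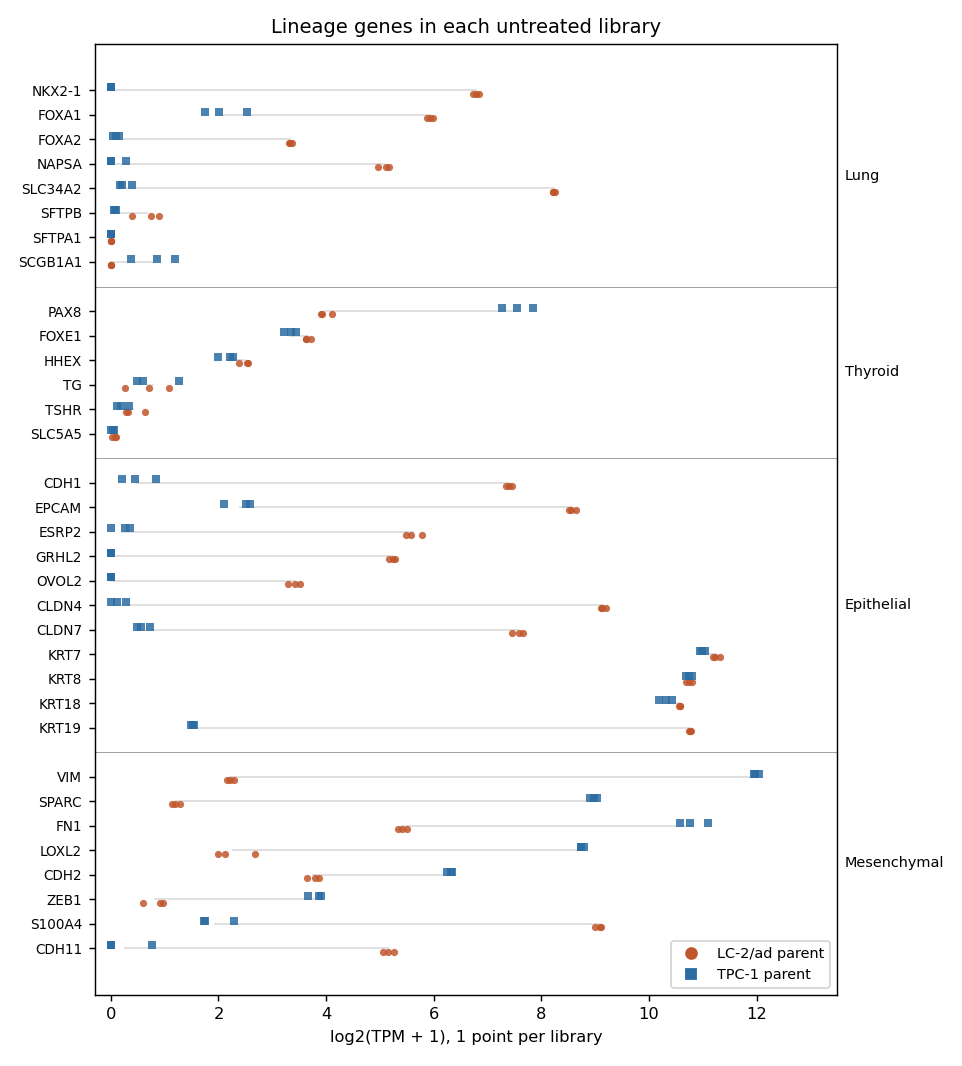
Level of lung, thyroid, epithelial and mesenchymal genes in log2(TPM + 1) (x axis), with 1 orange circle per LC-2/ad parent library and 1 blue square per TPC-1 parent library, 3 each. The grey bar joins the means of the lines. NKX2-1, CDH1 and KRT19 lie at the right only in LC-2/ad and VIM and SPARC only in TPC-1, while FOXE1, HHEX, KRT7, KRT8 and KRT18 lie together.

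Epithelial adhesion genes had the largest share of called members of the lists, 85.7%. Of 28 compared genes of epithelial junctions and their regulators 24 were higher in LC-2/ad against 0 in TPC-1, with a median difference of 4.30. CDH1 (ENSG00000039068, chromosome 16, 68737225 to 68835548), E-cadherin, stood at 176, 168 and 162 TPM in LC-2/ad against 0.149, 0.361 and 0.79 TPM in TPC-1, a difference of 6.91 ± 0.19. EPCAM, the epithelial adhesion molecule, measured 363, 398 and 376 TPM against 5.0, 3.31 and 4.68 TPM. The membrane serine protease ST14 and its inhibitor SPINT2 had 444 ± 19.5 and 605 ± 23.4 TPM in LC-2/ad, where TPC-1 had 0.102 ± 0.0621 and 1.61 ± 0.39 TPM. The factors that maintain the epithelial state differed in the same direction. GRHL2, a grainyhead factor, was at 36.5 ± 1.59 TPM in LC-2/ad and listed at 0 in TPC-1, as were OVOL2, a repressor of mesenchymal genes (9.61 ± 0.783 TPM in LC-2/ad), and the splicing factor ESRP1 (78 ± 4.36 TPM). ESRP2, its paralog, had 48.3 ± 5.23 TPM against 0.159 ± 0.142 TPM. The members that were not called were the junction genes CGN, F11R and CRB3 and the desmosome gene DSP, which stood at 18.1 ± 0.963 TPM in LC-2/ad and 22.9 ± 0.125 TPM in TPC-1.

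ZEB1 and the SNAI factors repress such genes by binding E-boxes, the letters CACCTG, on either strand, so also CAGGTG. RefSeq promoter windows on GRCh38.p14 were at hand for 10 of the epithelial members higher in LC-2/ad, and these 3 are shown because they hold the E-box letters in the 250 bases before the start. They belong to RAB25, a GTPase of epithelial recycling, ELF3, an ETS factor of epithelium, and GRHL3, a grainyhead factor. All lie on the plus strand, at chr1:156060910-156061159 for RAB25, chr1:202010337-202010586 for ELF3 and chr1:24319107-24319356 for GRHL3. They are written 5′ to 3′ with the E-box in capitals.
RAB25: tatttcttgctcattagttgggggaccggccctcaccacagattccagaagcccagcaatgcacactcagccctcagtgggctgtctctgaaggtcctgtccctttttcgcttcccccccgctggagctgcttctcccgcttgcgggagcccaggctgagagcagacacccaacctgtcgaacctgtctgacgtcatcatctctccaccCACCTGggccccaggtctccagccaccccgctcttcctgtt
ELF3: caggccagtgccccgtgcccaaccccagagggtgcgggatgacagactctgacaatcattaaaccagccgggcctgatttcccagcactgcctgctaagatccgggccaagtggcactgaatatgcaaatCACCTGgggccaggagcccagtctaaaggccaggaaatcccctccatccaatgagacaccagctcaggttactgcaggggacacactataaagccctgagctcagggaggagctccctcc
GRHL3: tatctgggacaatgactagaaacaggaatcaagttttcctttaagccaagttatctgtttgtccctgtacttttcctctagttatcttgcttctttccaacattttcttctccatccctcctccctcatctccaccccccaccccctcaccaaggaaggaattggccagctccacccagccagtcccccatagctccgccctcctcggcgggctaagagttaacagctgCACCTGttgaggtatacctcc

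The E-box begins 41 bases before the start in RAB25, 120 before it in ELF3 and 21 before it in GRHL3. RAB25 had 126, 124 and 121 TPM in LC-2/ad and was listed at 0 in TPC-1. ELF3 had 575 ± 5.25 TPM against 37.2 ± 3.01 TPM and GRHL3 5.13 ± 1.13 TPM against 0.026 ± 0.0237 TPM. Of the 10 windows 30% held a match, against 17.5% of 27305 promoters of the same length and 16% of the 10578 promoters of genes compared. Of 3 members that were not called 66.7% held one. The match describes the letters and shows no binding. GRHL3 and OVOL2 were not called with a pseudocount of 5 TPM.

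Claudins and keratins differed in some members and not in others. Of 14 compared claudin and occludin genes 6 were higher in LC-2/ad against 1 in TPC-1 (median difference 1.72). CLDN4, a claudin of simple epithelia, measured 585, 559 and 549 TPM in LC-2/ad and 0.216, 0 and 0.0843 TPM in TPC-1. CLDN7 and CLDN3 had 189 ± 13.2 and 171 ± 6.21 TPM in LC-2/ad, against 0.512 ± 0.135 and 0.475 ± 0.113 TPM. CLDN16, the claudin that lets magnesium pass in the kidney, was the member higher in TPC-1, at 57.9, 49.5 and 55.5 TPM against 1.44, 0.116 and 0.64 TPM. CLDN1 stood at 55.8 ± 2.31 TPM in LC-2/ad and 113 ± 5.48 TPM in TPC-1 and was not called. Of 14 keratins 6 were higher in LC-2/ad against 1 in TPC-1 (median difference 1.43). KRT19, a keratin of simple epithelium, measured 1728, 1751 and 1716 TPM against 1.9, 1.86 and 1.81 TPM. KRT13, a keratin of stratified epithelium, had 122 ± 7.91 TPM in LC-2/ad and was listed at 0 in TPC-1. The main keratins of simple epithelium were high in both lines. KRT7 stood at 2441 ± 110.4 and 2034 ± 66.5 TPM in LC-2/ad and TPC-1. KRT8 stood at 1709 ± 66.3 and 1714 ± 58.4 TPM and its partner KRT18 at 1517 ± 12.2 and 1269.7 ± 102 TPM, and none of these was called. KRT81, a hair keratin, was listed at 1187 ± 28.3 TPM in TPC-1 and 4.06 ± 0.183 TPM in LC-2/ad, a value that is uncertain because close keratin copies share reads.

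Mesenchymal genes were higher in TPC-1, with exceptions. Of 25 compared, 11 were higher in TPC-1 and 2 in LC-2/ad, with a median difference of -2.04. VIM (ENSG00000026025, chromosome 10, 17228259 to 17237593), the intermediate filament vimentin, stood at 4021, 4249.7 and 3968 TPM in TPC-1 and 3.45, 3.91 and 3.62 TPM in LC-2/ad, a difference of -9.78 ± 0.05. It was the largest called difference in that direction among the protein-coding genes ranked for naming. SPARC, a matrix glycoprotein, had 501 ± 24.1 TPM against 1.3 ± 0.124 TPM. The collagen crosslinking oxidase LOXL2 had 430.4 ± 9.02 TPM against 3.92 ± 1.32 TPM, and fibronectin, FN1, 1818 ± 341 TPM against 41.7 ± 2.59 TPM. CDH2, N-cadherin, measured 79.7, 74.9 and 78.6 TPM in TPC-1 and 11.5, 13.6 and 12.8 TPM in LC-2/ad. ZEB1, a repressor of CDH1, measured 13.9, 11.7 and 13.6 TPM against 0.893, 0.519 and 0.949 TPM. Levels of the other repressors of this class were low in both. SNAI2 stood at 4.4 ± 0.645 TPM in LC-2/ad and 3.71 ± 0.836 TPM in TPC-1. For SNAI1 the means were 1.33 ± 0.232 and 6.03 ± 0.293 TPM, and for TWIST1 0.343 ± 0.25 and 2.27 ± 0.403 TPM. The members higher in LC-2/ad were S100A4, a calcium-binding protein often used as a fibroblast marker, at 545, 551 and 507 TPM against 3.89, 2.38 and 2.33 TPM, and CDH11, a cadherin of osteoblasts and synovium, at 34.8 ± 2.55 TPM against 0.235 ± 0.406 TPM. ZEB1 was not called with a pseudocount of 5 TPM.

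Collagens and cytoskeleton genes were called in TPC-1 and never in LC-2/ad. Of 15 compared collagens 9 were higher in TPC-1 and 0 in LC-2/ad (median difference -2.82). COL4A1, a chain of basement membrane collagen, had 406, 330.4 and 358 TPM in TPC-1 and 5.62, 6.47 and 6.24 TPM in LC-2/ad, and COL16A1 had 29.2 ± 3.19 TPM against 1.23 ± 0.787 TPM. Of 27 genes of caveolae and cytoskeleton 12 were higher in TPC-1 and 0 in LC-2/ad (median difference -1.73). FSCN1, fascin, an actin bundler, had 291 ± 4.52 TPM against 7.2 ± 0.632 TPM. MSN, moesin, which ties actin to the membrane, had 358 ± 6.52 TPM against 10.6 ± 0.629 TPM. Its relative EZR, ezrin, was at 463 ± 6.02 TPM in LC-2/ad and 231 ± 4.64 TPM in TPC-1 and was not called. CAVIN3, a coat protein of caveolae, had 86.8 ± 4.59 TPM against 1.38 ± 0.275 TPM, whereas CAV1, caveolin itself, stood at 449 ± 9.88 and 142 ± 6.1 TPM and was not called. Integrins and laminins split, with 4 of 22 higher in LC-2/ad against 3 in TPC-1 (median difference 0.15). ITGB4, the hemidesmosome integrin, measured 154, 141 and 134 TPM in LC-2/ad and 0.831, 0.814 and 0.764 TPM in TPC-1. The fibronectin receptor chain ITGA5 measured 79.2, 84.7 and 87.8 TPM in TPC-1 and 1.61, 0.94 and 0.898 TPM in LC-2/ad, and ITGB3, a chain of the vitronectin receptor, 137 ± 12.1 TPM against 1.54 ± 0.207 TPM. ITGB1, the shared beta chain, was high in both, at 442 ± 26.1 TPM in LC-2/ad and 1200.4 ± 144 TPM in TPC-1.

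The 39 HOX genes listed, which record position along the body axis, summed to 209 ± 9.97 TPM in LC-2/ad and 6.58 ± 1.29 TPM in TPC-1. Of 17 compared 12 were higher there and 0 in TPC-1 (median difference 2.54). HOXB6 stood at 51.6, 54.4 and 58.8 TPM in LC-2/ad and 0.0404, 0 and 0 TPM in TPC-1. HOXB7 had 29.4 ± 3.22 TPM against 0.0955 ± 0.165 TPM, and HOXA3 34.3 ± 1.86 TPM against 1.41 ± 0.886 TPM. HOXA10 had 11.7 ± 0.725 TPM and was listed at 0 in TPC-1. With a pseudocount of 5 TPM HOXA10 was not called.

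Among 65 other lineage transcription factors 14 were higher in LC-2/ad against 5 in TPC-1 (median difference 1.02). In LC-2/ad SOX2, a factor of airway and squamous epithelium, stood at 22.6, 25.2 and 25.7 TPM against 0, 0.104 and 0.0294 TPM in TPC-1. FOXQ1, a forkhead factor of epithelium, had 16.3 ± 0.428 TPM against 0.020 ± 0.0175 TPM, and PAX9, a factor of foregut and pharyngeal pouches, 16.5 ± 0.654 TPM against 0.552 ± 0.171 TPM. In TPC-1 PAX6, the paired-box factor of eye and endocrine pancreas, stood at 13.9, 16.6 and 20.4 TPM against 0.0923, 0.0643 and 0.0771 TPM in LC-2/ad. TBX3, a T-box repressor, had 23.5 ± 2.13 TPM against 0.821 ± 0.113 TPM. PAX6 and PAX9 were not called with a pseudocount of 5 TPM. SOX9, GATA6 and NR2F2 were among the factors not called, with means of 12.1, 5.37 and 49.7 TPM in LC-2/ad and 7.64, 1.77 and 61.3 TPM in TPC-1.

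The RET transcript itself was not among the called genes. RET (ENSG00000165731, chromosome 10, 43077027 to 43130351) stood at 15.7, 15.9 and 16.5 TPM in LC-2/ad and 7.28, 6.92 and 6.93 TPM in TPC-1, a difference of 1.08 ± 0.03. The libraries did not overlap, but the gap was under 2. CCDC6, the fusion partner in both lines, was higher in LC-2/ad, at 24.9, 26.7 and 27 TPM against 0.615, 0.38 and 0.515 TPM, a difference of 4.18 ± 0.07. Gene totals do not separate fused from normal transcripts of RET or CCDC6. The GDNF coreceptor GFRA1 (ENSG00000151892, chromosome 10, 116056925 to 116273467) was higher in TPC-1, at 219, 214 and 217 TPM, against 0, 0.00666 and 0.00648 TPM in LC-2/ad. Its ligand GDNF was under 0.1 TPM in all 6 libraries. Of 20 compared genes around RET 3 were higher in each line, and the median difference was 0.30, as over all genes. GRB7, an adaptor of RET and ERBB2, had 56.2 ± 4.72 TPM in LC-2/ad and 0.459 ± 0.21 TPM in TPC-1. GDF15, the ligand of the GFRAL and RET pair and a stress cytokine, had 97 ± 2.42 TPM against 1.74 ± 0.0898 TPM. The adaptors DOK1 and DOK4 were higher in TPC-1, at 24.5 ± 0.902 and 24 ± 2.07 TPM against 3.02 ± 0.754 and 2.65 ± 0.131 TPM, and both calls were lost with a pseudocount of 5 TPM. The adaptors SHC1, 64.2 ± 4.66 TPM in LC-2/ad and 150.4 ± 3.2 TPM in TPC-1, and GRB2, 159 ± 3.34 and 65.7 ± 4.3 TPM, and the phosphatase PTPN11, 84.9 ± 3.92 and 74.1 ± 8.57 TPM, were not called.

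The receptor tyrosine kinases beside RET differed in make-up. Of 32 compared 9 were higher in LC-2/ad against 2 in TPC-1, with a median difference of 1.14. AXL (ENSG00000167601, chromosome 19, 41219203 to 41261766), the receptor of GAS6, stood at 554, 619.7 and 599 TPM in TPC-1 and 27.3, 27.2 and 25 TPM in LC-2/ad. It was the highest of these receptors in TPC-1, and MET held that place in LC-2/ad. MET, the HGF receptor, stood at 380.4, 398 and 371 TPM in LC-2/ad and 106, 85.6 and 87.7 TPM in TPC-1. Its difference of 2.03 missed a call because the nearest libraries were less than 2 apart, as was the case for ERBB2, 195, 188 and 177 TPM against 46.9, 43 and 45.8 TPM, difference 2.02. ERBB3, a partner of ERBB2 with little kinase activity of its own, was called, at 69.3, 55.1 and 70.7 TPM in LC-2/ad and 5.51, 4.72 and 5.48 TPM in TPC-1. EGFR leaned the other way, at 32.2, 30.6 and 31.2 TPM in LC-2/ad and 93.1, 76 and 82.3 TPM in TPC-1, and was not called. DDR1, a collagen receptor of epithelium, had 76.1 ± 12.5 TPM against 1.04 ± 0.35 TPM, and MST1R, a relative of MET, 28.5 ± 5.75 TPM against 0.718 ± 0.192 TPM. The FGF receptors differed in both directions: FGFR1 had 28.4 ± 1.24 TPM in TPC-1 and 1.37 ± 0.761 TPM in LC-2/ad, FGFR2 0.057 ± 0.0554 and 6.55 ± 1.3 TPM, and FGFR3 1.18 ± 0.582 and 17.6 ± 1.48 TPM. IGF1R had 20, 18.3 and 19.6 TPM in LC-2/ad and 2.99, 2.29 and 5.06 TPM in TPC-1. Its difference was 2.24 and it was not called. FGFR2, FGFR3 and KDR were not called with a pseudocount of 5 TPM.

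Ligands included more calls in TPC-1. Of 36 compared 7 were higher in TPC-1, 19.4% against 3.93% over all genes. In LC-2/ad 3 were higher, 8.33% and so near the 6.47% over all genes, and the median difference was 0.52. FGF2, a ligand of FGFR1, stood at 115, 85.2 and 101 TPM in TPC-1 and 0.0161, 0.0485 and 0.0473 TPM in LC-2/ad. FGF5 and FGF1, of the same family, had 29.2 ± 3.04 and 16.6 ± 1.5 TPM against 0.361 ± 0.0456 and 1.09 ± 0.233 TPM. NRG1, the ligand of ERBB3, had 11.7 ± 0.686 TPM in TPC-1 and 0.611 ± 0.172 TPM in LC-2/ad, so it was higher in the line with the lower ERBB3. PDGFC had 82.8 ± 8.9 TPM against 10.6 ± 1.26 TPM. In LC-2/ad AREG, an EGFR ligand, stood at 121, 126 and 125 TPM against 10.6, 8.36 and 9.44 TPM, MDK, midkine, a heparin-binding growth factor, at 519 ± 16.8 TPM against 83.9 ± 10.7 TPM, and EGF at 5.87 ± 0.396 TPM against 0.239 ± 0.034 TPM. EREG, another EGFR ligand, was at 74.8 ± 3.16 and 98 ± 13.8 TPM and was not called. GAS6, the ligand of AXL, had 6.21 ± 0.604 TPM in LC-2/ad and 16.3 ± 1.63 TPM in TPC-1, and HGF, the ligand of MET, was under the limit in both. FGF1, NRG1 and EGF were not called with a pseudocount of 5 TPM.

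ERK feedback genes were higher in LC-2/ad in part. Of 21 compared ERK feedback and target genes 5 were higher in LC-2/ad against 1 in TPC-1 (median difference 0.75). DUSP6 (ENSG00000139318, chromosome 12, 89347232 to 89353271), the phosphatase of ERK, stood at 162, 160.0 and 156 TPM in LC-2/ad and 13.6, 11.3 and 13 TPM in TPC-1. DUSP4, a nuclear ERK phosphatase, had 15.1, 14.6 and 14.7 TPM against 0.129, 0.0888 and 0.126 TPM. The ETS factor ETV4 had 46 ± 1.76 TPM against 5.17 ± 0.368 TPM. SPRY1 and SPRY4, inhibitors of receptor signalling, had 25 ± 2.6 and 16.2 ± 0.867 TPM against 2.28 ± 0.668 and 2.55 ± 0.45 TPM. IL11, a cytokine of the same list, was higher in TPC-1, at 15.4 ± 2.02 against 0.912 ± 0.30 TPM. Other classical targets were not called. CCND1, cyclin D1, had 223 ± 6.15 TPM in LC-2/ad and 75 ± 3.75 TPM in TPC-1 and MYC 182 ± 3.96 and 97.8 ± 15.3 TPM, both higher in LC-2/ad in every library by less than the gap asked for. FOSL1, an AP-1 subunit, lay the other way, at 55.5 ± 2.13 TPM in LC-2/ad and 158 ± 10.7 TPM in TPC-1. Only 2 of the 5 genes higher in LC-2/ad, DUSP4 and SPRY1, were also called in the treated libraries, where DUSP6 stood at 12.9 ± 1.84 and 5.91 ± 1.41 TPM. DUSP4, SPRY1, SPRY4 and IL11 were not called with a pseudocount of 5 TPM, and SPRY4 not with median-of-ratios scaling.

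The core of the RAS, RAF and PI3K pathways held calls in TPC-1 only. Of 38 compared genes 3 were higher in TPC-1 (7.89%) and 0 in LC-2/ad, with a median difference of 0.17. Over all genes the shares were 3.93% for TPC-1 and 6.47% for LC-2/ad. The called members included PIK3CD, the PI3K catalytic subunit best known from leukocytes, at 30.3, 33.6 and 29 TPM in TPC-1 and 0.487, 0.605 and 0.445 TPM in LC-2/ad, and RRAS2, a RAS-related GTPase, at 306 ± 18.6 TPM against 46.9 ± 0.836 TPM. AKT1 stood at 241 ± 11.2 and 161 ± 4.71 TPM in LC-2/ad and TPC-1 and PIK3CA at 12.9 ± 0.66 and 10.1 ± 0.826 TPM.

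**Figure D3:**
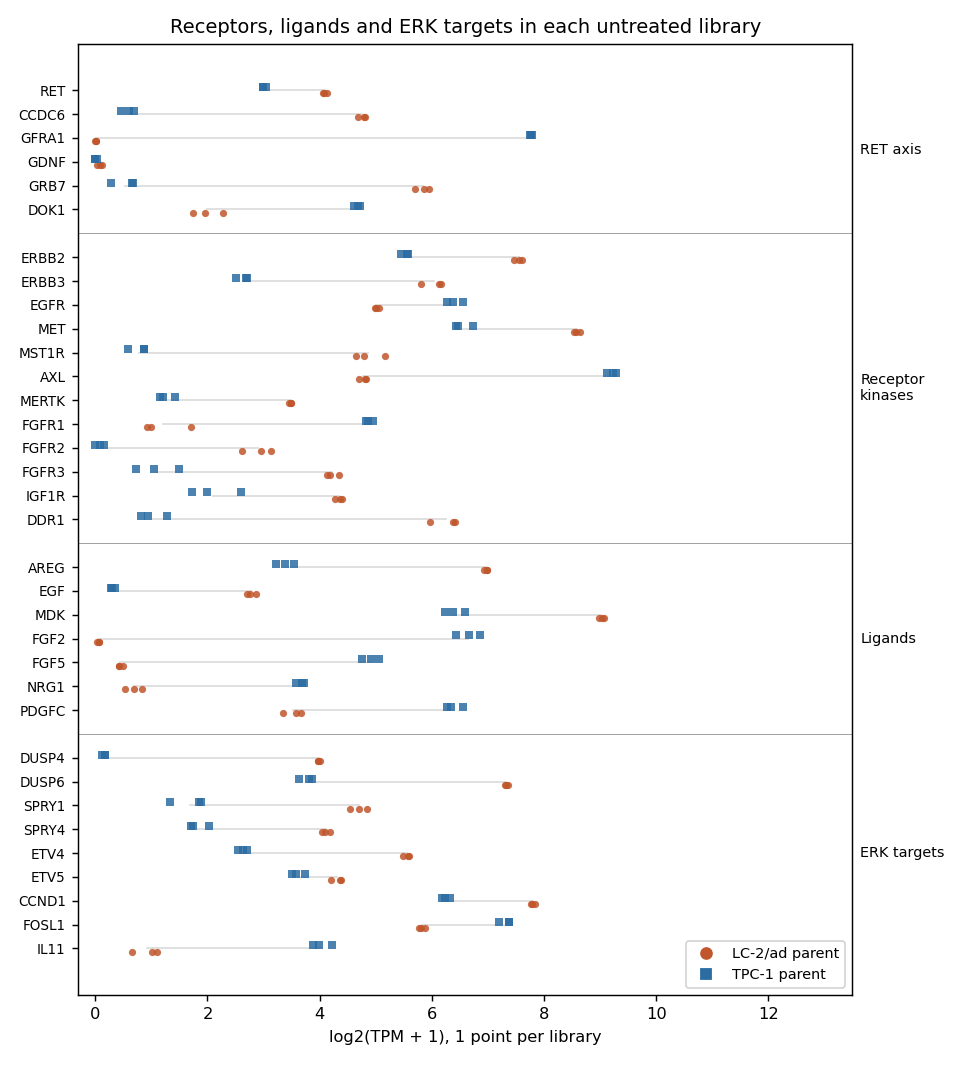
Level of RET-related genes, receptor tyrosine kinases, ligands and ERK targets in log2(TPM + 1) (x axis), with 1 orange circle per LC-2/ad parent library and 1 blue square per TPC-1 parent library, 3 each. The grey bar joins the means. GFRA1, AXL, FGFR1 and FGF2 lie to the right in TPC-1, CCDC6, DDR1, ERBB3, AREG and DUSP6 in LC-2/ad, and RET lies within 2 units in both.

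The large differences among cell cycle genes included inhibitors on chromosome 9. Of 29 compared genes of G1 control and tumour suppression 5 were higher in TPC-1 and 0 in LC-2/ad (median difference -0.51). CDKN2A (ENSG00000147889, chromosome 9, 21967753 to 21995301), which encodes an inhibitor of CDK4 and CDK6 and the MDM2 inhibitor ARF, was listed at 0 in all LC-2/ad libraries and stood at 565, 552 and 514 TPM in TPC-1. Its neighbour CDKN2B (ENSG00000147883, chromosome 9, 22002903 to 22009363), a related CDK inhibitor, was at 0, 0 and 0.0503 TPM against 5.07, 4.18 and 5.68 TPM. MTAP (ENSG00000099810, chromosome 9, 21802543 to 21937651), the enzyme that salvages methionine, was at 0.639, 0.483 and 0.346 TPM in LC-2/ad and 49.1, 36.8 and 36.5 TPM in TPC-1. CDH13, a cadherin without a transmembrane part, had 0.103 ± 0.049 TPM against 26.5 ± 3.3 TPM. The CDK inhibitors CDKN1A and CDKN1B were not called, at 25.1 ± 3.37 and 37 ± 2.94 TPM in LC-2/ad and 16.9 ± 2.33 and 36.8 ± 3.11 TPM in TPC-1. RB1, the target of these kinases, had 12.7 ± 1.06 TPM in LC-2/ad and 36.4 ± 3.29 TPM in TPC-1. CDKN2B lost its call with a pseudocount of 5 TPM and with a limit of 5 TPM.

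Proliferation genes did not separate the lines. Of 24 compared 0 were called in either direction, and the median difference was -0.035. MKI67, a marker of cycling cells, stood at 59.8, 62.5 and 55 TPM in LC-2/ad and 92.2, 89.1 and 91.3 TPM in TPC-1. PCNA, the sliding clamp of replication, stood at 176 ± 2.99 and 172 ± 3.93 TPM. The gene nearest to a call was TYMS, thymidylate synthase, at 52.9 ± 2.21 and 196 ± 7.55 TPM. Among 28 genes of the BCL2 family and death receptors 3 were higher in LC-2/ad against 2 in TPC-1 (median difference 0.09). These shares were 10.7% and 7.14%, beside 6.47% and 3.93% over all genes. BIRC3, an inhibitor of apoptosis, had 45.4 ± 1.87 TPM in LC-2/ad and 2.32 ± 0.173 TPM in TPC-1. BCL2 had 16.2 ± 1.07 TPM in TPC-1 and 0.375 ± 0.0773 TPM in LC-2/ad, a call lost with a pseudocount of 5 TPM. Its relatives MCL1 and BCL2L1 were not called, at 118 ± 4.5 and 99.3 ± 4.39 TPM in LC-2/ad and 94.1 ± 4.74 and 134 ± 2.35 TPM in TPC-1.

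Glycolysis genes lay toward TPC-1 as a list, mostly by less than the gap asked for. Of 33 compared genes of glucose transport and glycolysis 4 were higher in TPC-1 and 3 in LC-2/ad, and the median difference was -0.86, against 0.30 over all genes. LDHA, which makes lactate, stood at 2174, 2358 and 2377 TPM in LC-2/ad and 7340.0, 7969 and 7293 TPM in TPC-1, a difference of -1.71 ± 0.06 that was not called. LDHB, the isoform that favours pyruvate, stood at 1149 ± 16.1 and 1358 ± 30.6 TPM. Of the called genes PFKP, the platelet type of phosphofructokinase, had 311, 278 and 281 TPM in TPC-1 and 38.9, 38.4 and 34.6 TPM in LC-2/ad, and PGAM1, phosphoglycerate mutase, 1295 ± 17.5 TPM against 229 ± 11.8 TPM. HKDC1, a hexokinase-like gene, had 47 ± 2.95 TPM against 1.95 ± 0.268 TPM, and PDK1, which restrains pyruvate dehydrogenase, 19.4 ± 1.51 TPM against 2.83 ± 0.321 TPM. FBP1, the phosphatase that opposes phosphofructokinase in gluconeogenesis, was the strongest exception, at 55.3, 54.5 and 57 TPM in LC-2/ad and 0.0471, 0.157 and 0.11 TPM in TPC-1. ALDOC, an aldolase of brain, had 10.7 ± 0.412 TPM against 0.566 ± 0.282 TPM. PKM, pyruvate kinase, stood at 1121 ± 24.9 and 3326 ± 87.2 TPM, SLC2A1, the main glucose transporter, at 147 ± 5.51 and 304 ± 14.8 TPM and HK2 at 22.7 ± 0.885 and 33.8 ± 2.69 TPM, all uncalled. PDK1 and ALDOC lost their calls with a pseudocount of 5 TPM.

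Transcripts of mitochondrial DNA made up 9.77% ± 0.05 of the TPM in LC-2/ad against 6.97% ± 0.57 in TPC-1. Of 13 such transcripts 0 were called, with a median difference of 0.65. MT-ND2, a subunit of complex I, had 3579.6 ± 158 TPM in LC-2/ad and 1666 ± 145 TPM in TPC-1, and MT-CO3, of complex IV, 10961 ± 44.5 and 10602 ± 819.7 TPM. Of 29 nuclear genes of the respiratory chain 0 were called and the median difference was 0.02. Without the mitochondrial transcripts the counts of called genes were 1011 and 571.

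The lipid and amino acid lists each held a few calls in both directions. Of 38 compared genes of cholesterol and fatty acid synthesis 3 were higher in TPC-1 (7.89%) and 1 in LC-2/ad (2.63%), with a median difference of 0.26. Over all genes the shares were 3.93% for TPC-1 and 6.47% for LC-2/ad. FABP5, a fatty acid carrier, had 124 ± 4.29 TPM in TPC-1 and 15.8 ± 1.94 TPM in LC-2/ad, and PLIN2, a lipid droplet coat, 51.7 ± 3.22 TPM against 5.0 ± 0.623 TPM. ACSL5, which activates long fatty acids, had 49.7 ± 2.58 TPM in LC-2/ad and 1.79 ± 0.11 TPM in TPC-1. FASN and SCD, of fatty acid synthesis, were not called, at 259 ± 13.3 and 123 ± 2.79 TPM in LC-2/ad and 105 ± 2.72 and 63.8 ± 2.31 TPM in TPC-1. Of 31 amino acid genes 3 were higher in each line, 9.68% each beside the same shares over all genes (median difference -0.02). NNMT, which methylates nicotinamide, had 298, 307 and 307 TPM in TPC-1 and 1.31, 1.23 and 1.52 TPM in LC-2/ad. SLC7A5, the large neutral amino acid transporter, had 809.6, 793 and 854 TPM against 113, 109 and 108 TPM. ASS1, the arginine-making enzyme argininosuccinate synthase, had 88.1 ± 4.02 TPM in LC-2/ad and 12.7 ± 0.665 TPM in TPC-1. PHGDH, the entry enzyme of serine synthesis, stood at 64.7 ± 4.59 and 168 ± 11 TPM and was not called.

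Enzymes of xenobiotic and redox metabolism held calls in both directions. Of 37 compared 10 were higher in LC-2/ad against 4 in TPC-1 (median difference 0.98). CYP1A1, a target of the aryl hydrocarbon receptor, stood at 55.9, 50.4 and 50.8 TPM in LC-2/ad and 0.545, 0.547 and 0.439 TPM in TPC-1. CYP2S1, of the same gene superfamily, had 34 ± 2.07 TPM against 0.523 ± 0.172 TPM. The aldo-keto reductase AKR1C2 was listed at 67.8 ± 1.9 TPM against 0.515 ± 0.129 TPM and is uncertain because its paralogs are nearly identical. CYP24A1, which breaks down vitamin D, stood at 235, 195 and 203 TPM in TPC-1 and 6.31, 6.75 and 6.55 TPM in LC-2/ad. AKR1B1, aldose reductase, had 902 ± 41.2 TPM against 131 ± 8.28 TPM, and HMOX1, heme oxygenase, 47.3 ± 1.68 TPM against 6.71 ± 0.415 TPM. NQO1, a quinone reductase and target of NRF2, was high in both, at 599 ± 23.6 TPM in LC-2/ad and 809.7 ± 9.9 TPM in TPC-1. ALDH1A1, a retinal dehydrogenase, was below the limit on average, at 0.819 ± 0.398 and 0.267 ± 0.201 TPM. Of 5 metallothioneins 2 were higher in TPC-1 and 0 in LC-2/ad (median difference -1.87). MT2A, a metal-binding protein, was listed at 2668, 3011 and 2809 TPM in TPC-1 and 91.5, 104 and 86.4 TPM in LC-2/ad, with reads that near-identical copies may share. Among 14 ABC transporters 3 were higher in LC-2/ad against 1 in TPC-1 (median difference 1.0), with ABCC3 at 165 ± 18.5 TPM in LC-2/ad and 16.1 ± 1.29 TPM in TPC-1 and ABCC4 at 11.1 ± 0.351 and 56.4 ± 3.63 TPM. With a pseudocount of 5 TPM ABCC4 was not called.

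**Figure D4:**
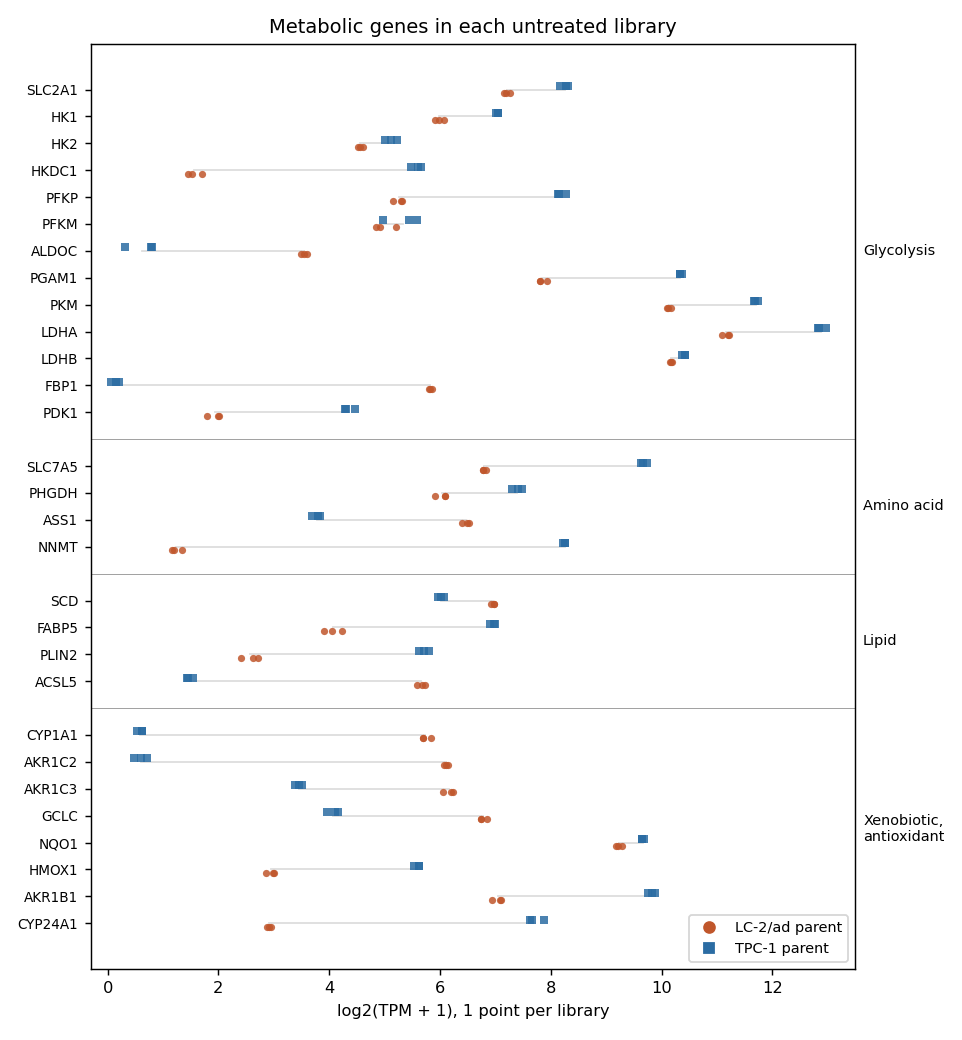
Level of glycolysis, amino acid, lipid and xenobiotic genes in log2(TPM + 1) (x axis), with 1 orange circle per LC-2/ad parent library and 1 blue square per TPC-1 parent library, 3 each. The grey bar joins the means. Most glycolysis genes lie somewhat to the right in TPC-1, FBP1 far to the right in LC-2/ad, and NNMT and CYP24A1 far to the right in TPC-1.

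Secreted and surface glycoproteins gave the largest called difference in LC-2/ad among the protein-coding genes ranked for naming. Of 25 compared mucins and secreted glycoproteins 15 were higher in LC-2/ad against 3 in TPC-1 (median difference 3.86). CEACAM6, an adhesion molecule of epithelium, stood at 1763, 1815 and 1783 TPM in LC-2/ad and was listed at 0 in TPC-1, and its relative CEACAM5, the tumour marker CEA, stood at 533 ± 12.7 TPM against 0.00942 ± 0.0163 TPM. Reads of this family may be shared between copies. LCN2, a siderophore-binding lipocalin, had 599, 617 and 659.8 TPM against 0, 0.104 and 0.343 TPM, and AGR2, a disulfide isomerase of mucous cells, 541 ± 30.5 TPM against 3.08 ± 0.414 TPM. The galectins differed in opposite directions. LGALS1 stood at 5912, 5974 and 5568 TPM in TPC-1 and 50.7, 47.3 and 48.6 TPM in LC-2/ad, and LGALS3 at 706, 755 and 724 TPM in LC-2/ad and 18.3, 18.6 and 19.5 TPM in TPC-1. SPP1, osteopontin, had 312 ± 39.1 TPM in TPC-1 and 0.24 ± 0.176 TPM in LC-2/ad. Of 22 S100 and annexin genes 5 were higher in LC-2/ad against 4 in TPC-1 (median difference 0.13). S100A9, a subunit of calprotectin, stood at 1056, 1028 and 1023 TPM in LC-2/ad and was listed at 0 in TPC-1, while its partner S100A8 had 1.58 ± 0.751 TPM in LC-2/ad and was also listed at 0 in TPC-1. S100A14 had 393 ± 13.8 TPM against 0.318 ± 0.242 TPM, and ANXA6, an annexin of membranes, 338 ± 7.1 TPM in TPC-1 and 5.89 ± 0.191 TPM in LC-2/ad.

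Immune genes differed in a few members. Of 35 compared interferon-stimulated genes 3 were higher in LC-2/ad, 8.57% against 6.47% over all genes, and 0 in TPC-1 (median difference 0.73). IFITM1, an antiviral membrane protein, had 107, 93.6 and 97.6 TPM in LC-2/ad and 0, 0.101 and 0 TPM in TPC-1, and BST2, tetherin, 84.7 ± 3.1 TPM against 0.274 ± 0.226 TPM. ISG15, a ubiquitin-like protein, was not called, at 28.4 ± 3.31 TPM in LC-2/ad and 49 ± 4.2 TPM in TPC-1. Of 20 antigen presentation and checkpoint genes 4 were higher in LC-2/ad against 1 in TPC-1 (median difference 0.57). LGALS9, a galectin that binds the T cell receptor TIM-3, had 229.9 ± 6.82 TPM in LC-2/ad and 0.597 ± 0.0727 TPM in TPC-1. ICAM1, an adhesion ligand of leukocytes, had 94.3 ± 0.707 TPM against 3.06 ± 0.177 TPM, and CD47, the signal against phagocytosis, 295 ± 17.9 TPM against 41.5 ± 1.1 TPM. CD274, which encodes PD-L1, stood at 6.23 ± 0.509 TPM in LC-2/ad and 6.62 ± 0.586 TPM in TPC-1 and was not called. Of 23 cytokines and chemokines 5 were higher in LC-2/ad against 2 in TPC-1 (median difference 1.39). CXCL17, a chemokine of airway mucosa, had 114, 132 and 124 TPM in LC-2/ad and was listed at 0 in TPC-1. CXCL8, the neutrophil chemokine, had 30.7 ± 4.21 TPM against 1.26 ± 0.435 TPM. IL32 had 298 ± 19.8 TPM in TPC-1 and 35.9 ± 4.11 TPM in LC-2/ad, and IL6 stood at 4.8 ± 0.286 and 6.68 ± 0.613 TPM and was not called.

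Developmental pathways split between the lines. Of 26 compared YAP and TAZ target genes 7 were higher in TPC-1 and 4 in LC-2/ad (median difference -0.46). DLC1, a GTPase-activating protein, had 43 ± 3.34 TPM in TPC-1 and 0.376 ± 0.151 TPM in LC-2/ad. The matricellular CCN1 had 461, 398 and 426 TPM against 68.9, 67.8 and 70.3 TPM and its relative CCN2 58.1, 49.1 and 54 TPM against 9.83, 10.6 and 10.9 TPM. ANKRD1, a target of the same factors, was higher in LC-2/ad, at 16.2 ± 1.2 against 0.035 ± 0.0333 TPM. YAP1 itself stood at 117 ± 3.53 and 80.4 ± 8.42 TPM in LC-2/ad and TPC-1. IGFBP3, a carrier of insulin-like growth factors in this list, stood at 259.8 ± 3.19 and 474 ± 31.1 TPM and was not called. Of 25 TGF-beta and BMP genes 2 were higher in each line (median difference -0.25), 8% each. Over all genes the shares were 6.47% for LC-2/ad and 3.93% for TPC-1. The activin chains differed in opposite directions: INHBA had 36.7 ± 2.72 TPM in TPC-1 and 0.207 ± 0.0401 TPM in LC-2/ad, and INHBB 40.7 ± 0.489 TPM in LC-2/ad and was listed at 0 in TPC-1. Of 35 Wnt and Notch genes 5 were higher in LC-2/ad against 4 in TPC-1 (median difference -0.12). WNT5B, a Wnt ligand, had 119, 111 and 128 TPM in TPC-1 and 0.162, 0.277 and 0.133 TPM in LC-2/ad, and DKK3, of the Dickkopf family, 61.3 ± 3.08 TPM against 0.599 ± 0.293 TPM. RNF43, which removes Wnt receptors from the surface, had 26.3 ± 0.573 TPM in LC-2/ad and 0.0126 ± 0.0219 TPM in TPC-1, and the Notch ligand JAG2 27.5 ± 0.638 TPM against 1.13 ± 0.391 TPM. CCN2 and ANKRD1 were not called with a pseudocount of 5 TPM.

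Genes of other lineages appeared in each line. Of 6 compared cancer-testis and oncofetal genes 2 were higher in each line. XAGE1A was listed at 793, 908 and 913 TPM in LC-2/ad against 0 in TPC-1, a value that is uncertain because XAGE1B is nearly identical. IGF2BP2, an oncofetal RNA-binding protein, had 139 ± 18.1 TPM in TPC-1 and 17.2 ± 1.13 TPM in LC-2/ad. Of 4 neuroendocrine genes 2 were higher in TPC-1 and 0 in LC-2/ad. UCHL1, a ubiquitin hydrolase of neurons, had 373, 378 and 366 TPM in TPC-1 and 18, 15.3 and 16 TPM in LC-2/ad, while the factors NEUROD1 and INSM1 were under the limit in both. Among the protein-coding genes ranked for naming, the remaining ones in TPC-1 were ALOX5AP, FXYD2, HAVCR1 and KCNMA1. ALOX5AP, an activator of leukotriene synthesis, had 367 ± 8.32 TPM against 0.115 ± 0.132 TPM. FXYD2, the gamma subunit of the sodium pump, had 339 ± 46.2 TPM against 0.0734 ± 0.109 TPM. HAVCR1, the kidney injury molecule KIM-1, had 338 ± 31.6 TPM against 0.105 ± 0.182 TPM. KCNMA1, a potassium channel, had 182 ± 4.57 TPM against 0.085 ± 0.0458 TPM. In LC-2/ad they were joined by TMPRSS4, a membrane serine protease, at 345 ± 12.6 TPM against 0.084 ± 0.0785 TPM.

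**Figure D5:**
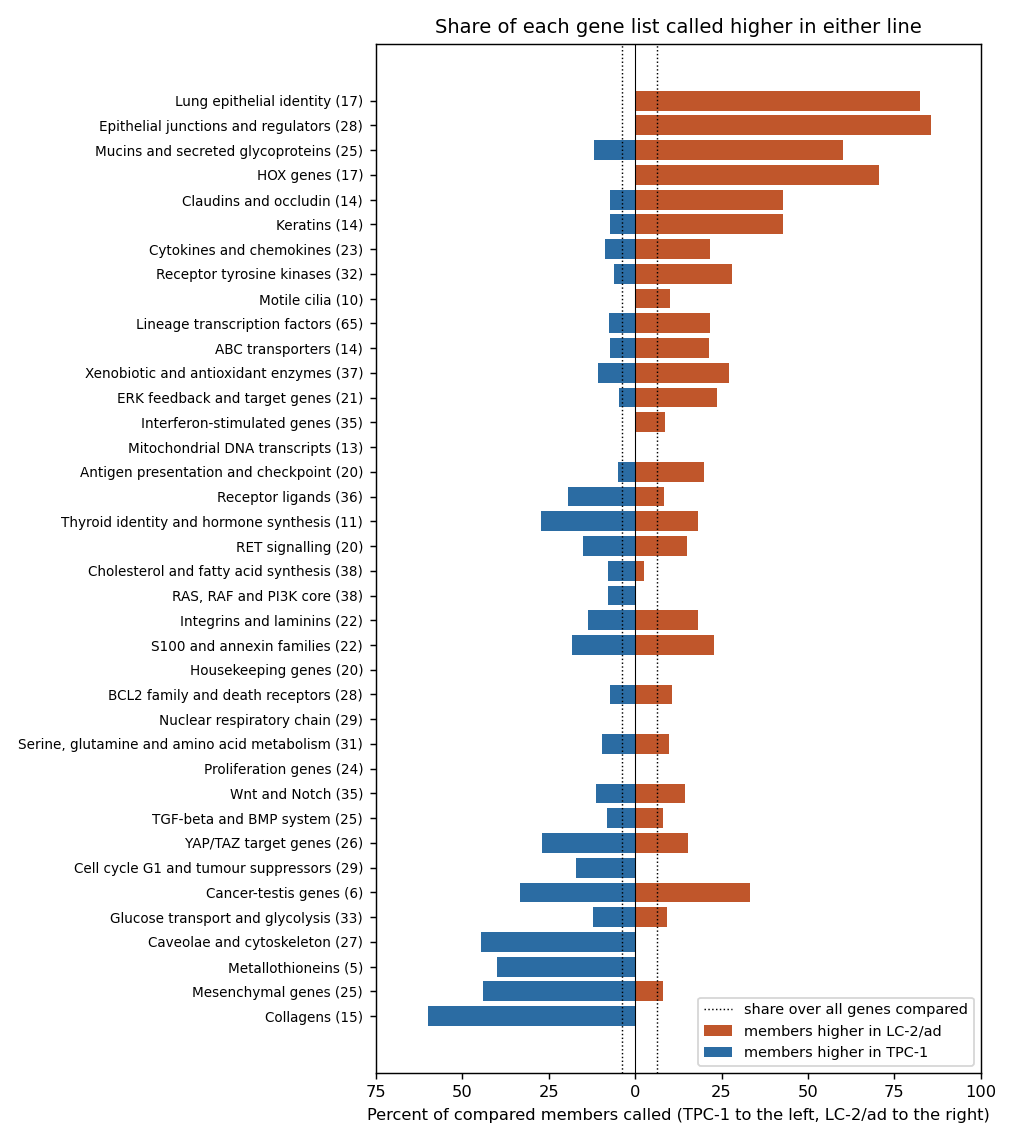
Percent of the compared members of each gene list that were called higher in LC-2/ad (orange, to the right) and in TPC-1 (blue, to the left), with the number compared in brackets and lists of 5 or more compared members in order of their median difference. Dotted lines mark the shares over all genes compared, 6.47% and 3.93%. Lung identity, epithelial junction, mucin and HOX genes reach far to the right, collagen, mesenchymal and cytoskeleton genes to the left, and proliferation, respiratory chain, mitochondrial DNA and housekeeping genes have no bar.

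Ratios between a pair of genes of the same library depend little on a factor common to that library. They were taken as the difference of log2(TPM + 1) within a library. Of 20 pairs 18 did not overlap between the lines, which is no result about the pairs, since 51.4% and 30% of single genes did not overlap in one or the other direction. The log2 ratio of CDH1 to VIM was 5.31, 5.10 and 5.15 in the LC-2/ad libraries and -11.8, -11.6 and -11.1 in the TPC-1 libraries. For NKX2-1 to PAX8 it was 2.81 ± 0.16 in LC-2/ad and -7.56 ± 0.29 in the other line, where NKX2-1 was at 0 and the ratio reads PAX8 alone, and for LGALS3 to LGALS1 3.87 ± 0.10 and -8.20 ± 0.10. MET to AXL was 3.81 ± 0.05 in LC-2/ad against -2.66 ± 0.25 in TPC-1, so MET exceeded AXL in every LC-2/ad library and AXL exceeded MET in every TPC-1 library. ERBB2 to EGFR was 2.54 ± 0.06 and -0.87 ± 0.09. LDHB to LDHA was -1.0 ± 0.05 in LC-2/ad against -2.47 ± 0.06 in TPC-1, with LDHA above LDHB in all 6 libraries. PFKP to PFKM, the muscle type of phosphofructokinase, was 0.26 ± 0.14 and 2.84 ± 0.26. DUSP6 to DUSP4, the ERK phosphatases, was 3.34 ± 0.02 in LC-2/ad against 3.61 ± 0.10 in TPC-1, a difference of -0.27 that was 1.27 with a pseudocount of 5 TPM. The pairs that overlapped were SLC2A1 to SLC2A3, both glucose transporters, at 6.31 ± 0.48 and 5.75 ± 0.06, and CDK4 to CDK6 at 3.40 ± 0.04 and 3.25 ± 0.19.

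The treated libraries, from the same tables, gave the line difference a second time. Of the 949 genes higher in LC-2/ad parent cells 802 (84.5%) were called in the same direction after treatment, 0 in the other, and 949 kept the sign. Of the 576 higher in TPC-1 479 (83.2%) were called again, 0 in the other direction, and 575 kept the sign. All 14 lung genes were among them, and 23 of the 24 epithelial genes, 9 of the 9 collagens and 11 of the 12 HOX genes. After treatment NKX2-1 stood at 140.4 ± 0.256 TPM in LC-2/ad against 0 in TPC-1, CDH1 at 189.8 ± 16.5 and 0.82 ± 0.881 TPM, VIM at 8.34 ± 1.51 and 4032 ± 166 TPM and AXL at 39.8 ± 1.51 and 595 ± 35.4 TPM. The ratios of MET to AXL, 2.02 in LC-2/ad against -2.97 in TPC-1 on average, and of CDH1 to VIM, 4.36 and -11.2, kept their signs. Of the genes described here FOXJ1, GLIS3, CDH2, DOK4, AREG, DUSP6, ETV4, SPRY4, HMOX1 and CCN2 were not called among the treated libraries. ERBB2, IGF1R, EREG, FOSL1, MKI67, TYMS, LDHA, PKM and IL6 were called only there, LDHA at 863 ± 13.8 TPM in LC-2/ad and 6119 ± 599 TPM in TPC-1.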

How the data were processed

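RNA-seq of 6 parent libraries, 3 of LC-2/ad and 3 of TPC-1, was used, with 6 treated libraries as a check. The authors deposited TPM values per gene in 1 table per line. Total RNA was taken with a column kit, per the labels' protocols. Salmon, bcl2fastq 2.20.0 and the build GRCh38 are named, without roles, in the processing notes of the submitters. Depth is unknown, so no counting interval was made.

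Rows were joined on Ensembl IDs (37247 rows). Symbols matched for 29530 (79.3%), and 34620 were in GENCODE 29 (GRCh38), from which coordinates come. Values were taken as log2(TPM + 1), a pseudocount of 1. Genes with a mean of at least 1 TPM in a line were compared, and a call needed a gap of 2 between the nearest libraries. No p-value was computed across the separately normalised tables. Computation used numpy 2.4.6 and pandas 2.3.3 under Python 3.11.15, with matplotlib 3.10.9 for figures, and was tested on simulated data.

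The members, the 42 gene lists and the call rule were chosen with earlier results of these data known. Named genes included the 12 with the largest called difference in each direction. These were ranked among protein-coding genes with a symbol, outside the Y chromosome and the MHC region. The others were up to 4 called members per list and direction with the largest difference, the ratio pairs and a core set. Other genes named, mostly members that were not called, were chosen after their values were seen. Alternatives were the pseudocount, the limit on low values, the gap, the scaling, protein-coding genes alone, each library left out, a replicate block and the treated libraries. CHGA, HRAS, PSMB8, PSMB9 and TNF were not analysed here. Promoter windows are from RefSeq (GRCh38.p14).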

Additional observations from a re-analysis of the deposited data

Results flagged for a closer look

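ETV5, an ETS factor downstream of ERK, was singled out because the line difference had opposite directions in the parent and the treated libraries, with every library of each group on the same side. In parent cells it stood at 19.9, 17.5 and 19.5 TPM in LC-2/ad and 12.3, 10.9 and 10.3 TPM in TPC-1, a difference of 0.71. In treated cells it stood at 2.4 ± 0.121 TPM in LC-2/ad and 6.81 ± 2.11 TPM in TPC-1, a difference of -1.16. The change of the difference between parent and treated cells was not tested.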

How the results depend on the processing

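The calls depended on how low values were damped and on how wide a gap was asked for, and 0 of the 234 genes named by rule reversed a call. Against 949 and 576 genes higher in LC-2/ad and TPC-1, a pseudocount of 0.1 gave 1566 and 858, and a pseudocount of 5 gave 405 and 301. A gap of 1 gave 2619 and 1385 and a gap of 3 gave 455 and 266. Of the distinct list genes, 168 and 109 as reported, a pseudocount of 5 called 100 in LC-2/ad, a gap of 1 called 281 and 187, and a gap of 3 called 108 and 54. Calls also made in the treated libraries, 802 and 479 as reported, numbered 1338 in LC-2/ad with a pseudocount of 0.1, 350 and 256 with a pseudocount of 5, 2133 and 1142 with a gap of 1, and 393 and 226 with a gap of 3. The difference between lines in the log2 ratio of DUSP6 to DUSP4, -0.27 as reported, was 1.27 with a pseudocount of 5, since DUSP4 was under 1 TPM in TPC-1. Leaving out each library in turn gave 974 to 1056 and 587 to 608 genes, 169 to 175 and 109 to 111 list genes, and 18 to 19 pairs without overlap. Median-of-ratios scaling moved the median difference of all genes from 0.30 to 0.17 and gave 873 and 617 calls. The limit on low values, protein-coding genes alone, removal of mitochondrial transcripts and a difference of means each gave counts within 1.5 times those reported. Of 193 named genes with a call, 144 kept it under the alternatives other than a gap of 3 and the treated libraries, and 49 lost it with a pseudocount of 5. Depth is unknown in TPM, so no interval for low values can be given.

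The libraries of both lines carry the same replicate numbers. Correlations across genes of the deviations of same-numbered libraries from their line's mean were 0.02, 0.02 and -0.01. The gene-by-gene deviations were thus almost unrelated. A shift common to all genes of a library drops out of such a correlation and was not checked. This cannot tell whether same-numbered libraries were handled together, which the labels do not say. Taking the replicate block as pairs, and asking for the gap within each pair, gave 1016 and 598 genes and 174 and 109 list genes.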

Other observations

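A set of 18 genes known from kidney tubule was looked up after values had been seen, because FXYD2, HAVCR1 and CLDN16 stood among the large differences. Of the 18 genes 8 were under 1 TPM in both lines and were not compared. Of the 10 that were compared 6 were higher in TPC-1 and 0 in LC-2/ad. PAX2, the paired-box factor of kidney development, stood at 16.5, 11.5 and 13.8 TPM in TPC-1 and 0, 0 and 0.0194 TPM in LC-2/ad. AQP2, the water channel of the collecting duct, lay the other way, at 1.66, 3.2 and 2.86 TPM in LC-2/ad and 0 in all TPC-1 libraries. It was not called in parent cells but was in treated cells, at 7.67 ± 2.44 TPM in LC-2/ad against 0 in TPC-1. PAX8, which the thyroid also makes, was among the 6, as were FXYD2, HAVCR1 and CLDN16. PAX2 was not called with a pseudocount of 5 TPM. The choice of these genes followed their values, so the count is a description of this choice only.

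Genes next to CDKN2A and CCDC6 were also looked up after values had been seen. On chromosome 9, beside CDKN2A, CDKN2B and MTAP, the genes KLHL9 and TUSC1 stood at 5.28 ± 0.198 and 4.16 ± 0.065 TPM in LC-2/ad and 15.1 ± 0.419 and 7.21 ± 0.532 TPM in TPC-1 and were not called. Farther out PLIN2 was called higher in TPC-1 (difference -3.14), and HACD4 (-1.72), FOCAD (-1.20), RPS6 (-1.19) and MLLT3 (-0.89) lay the same way, uncalled. Of the genes looked up on this stretch only MOB3B (1.05) and C9orf72 (0.20) lay toward LC-2/ad, both uncalled. A cause was not tested. On chromosome 10, around CCDC6, SLC16A9, a transporter, stood at 22.3, 23.6 and 25.3 TPM in LC-2/ad and was listed at 0 in TPC-1, and ANK3, an ankyrin, had 15.8 ± 0.965 TPM against 1.46 ± 0.326 TPM, a call lost with a pseudocount of 5 TPM. BICC1, an RNA-binding protein of the same stretch, was higher in TPC-1, at 90.9 ± 4.54 TPM against 4.26 ± 0.261 TPM, and CDK1 was not called, at 94.9 ± 6.34 and 80.9 ± 3.95 TPM.

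Over protein-coding genes at 10 TPM or more in both lines, the median difference by autosome was highest on chromosome 11, at 0.59 over 465 genes, followed by chromosome 5 at 0.51 over 327 genes and chromosome 7 at 0.50 over 318 genes. It was lowest on chromosome 18, at -0.51 over 84 genes. The sex chromosomes and mitochondrial DNA were not part of this comparison.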
